A study of Homo sapiens with 9 samples.

Results

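The SNF2 family ATPases are the motor subunits of chromatin remodelling complexes, and their transcripts were followed here by RNA-seq in KHM-5M, a human thyroid cancer cell line, after 24 h with the ETS inhibitor YK-4-279. The 32 genes were taken by symbol from the 58735 genes of the deposited table, namely the CHD, ISWI, SWI/SNF, INO80, RAD54 and related proteins, and all 32 were found. They were arranged in 14 subfamilies by the protein family they belong to. KHM-5M cells in culture received DMSO or the compound at 0.3 μM or 1 μM. Each of the 3 groups had 3 samples, which made 9 in all. DMSO is the solvent and served as the control group. YK-4-279 is a small molecule developed against fusion proteins of the ETS transcription factors. All samples came from 1 cell line, and the labels do not say whether the 3 samples of a group were separate cultures, so that p-values measure only the spread between these samples. The methods of the study call its replicates biological but give fewer of them per group than the labels do.

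An SNF2 ATPase burns ATP to walk along DNA. Depending on the protein and its partner subunits, this slides or evicts nucleosomes, exchanges histone variants, strips other proteins from DNA or remodels stalled replication forks and recombination intermediates. HELLS and RAD54L are known to be made mainly while DNA is being replicated.

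The samples held 16903251 to 18238884 counts each, and no pair of replicates was so alike as to be the same library. The cell type was compared with markers. Of 10 thyroid follicular genes, the transcription factors PAX8 and HHEX had a mean above 1 FPKM (fragments scaled by gene length and by sequencing depth). Of 5 epithelial markers, EPCAM, KRT8, KRT18 and KRT19 had a mean above 1 FPKM, while CDH1 had 0 to 5 counts per sample. Of 6 mesenchymal markers, VIM, CDH2, FN1, COL1A1 and PDGFRB had a mean above 1 FPKM, while COL3A1 had 0 to 6 counts. None of the leukocyte, endothelial or C cell markers had such a mean. The summed leukocyte markers were 0.234 to 0.69 FPKM in the control group and 0.971 to 1.09 FPKM at 1 μM. Most of this sum was CD14, at 0.234 to 0.643 FPKM in the control group and 0.919 to 1.07 FPKM at 1 μM. PTPRC, CD3E and CD68 had 0 to 2 counts per sample. The part of these markers in the results was not tested.

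Promoters of 3 of the genes whose transcripts were lower after treatment are shown. SHPRH, which was also lower and has a window without a match, is not shown. HELLS and BTAF1 hold a match to a motif searched, and RAD54L, which had a fall of similar size to that of HELLS, holds none. Each window is 250 bases before to 50 bases after the RefSeq start of transcription (GRCh38.p14, plus strand), given 5′ to 3′. Capitals mark the matches.
HELLS, chr10:94545538-94545837: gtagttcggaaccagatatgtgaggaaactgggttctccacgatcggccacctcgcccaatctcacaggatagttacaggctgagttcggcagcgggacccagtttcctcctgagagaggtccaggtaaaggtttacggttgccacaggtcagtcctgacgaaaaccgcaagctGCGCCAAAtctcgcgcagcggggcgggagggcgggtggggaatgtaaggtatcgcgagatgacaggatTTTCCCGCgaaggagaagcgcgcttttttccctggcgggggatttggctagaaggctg
BTAF1, chr10:91923520-91923819: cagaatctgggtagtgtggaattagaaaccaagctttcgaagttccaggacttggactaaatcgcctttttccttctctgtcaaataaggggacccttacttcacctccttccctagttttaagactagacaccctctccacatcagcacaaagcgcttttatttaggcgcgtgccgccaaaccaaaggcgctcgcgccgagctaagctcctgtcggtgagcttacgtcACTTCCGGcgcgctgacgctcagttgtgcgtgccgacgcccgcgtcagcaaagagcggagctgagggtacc
RAD54L, chr1:46247438-46247737: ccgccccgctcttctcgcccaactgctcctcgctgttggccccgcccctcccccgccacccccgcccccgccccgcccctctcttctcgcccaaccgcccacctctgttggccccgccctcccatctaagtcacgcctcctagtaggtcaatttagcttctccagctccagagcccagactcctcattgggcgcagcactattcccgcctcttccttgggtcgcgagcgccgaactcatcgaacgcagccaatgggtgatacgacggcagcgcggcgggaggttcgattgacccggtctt
The capitals in HELLS are 2 matches to E2F letters, TTTGGCGC on the minus strand at 76 bases before the start and TTTCCCGC on the plus strand at 8 bases before it. Those in BTAF1 are the ETS letters CCGGAAGT on the minus strand at 21 bases before the start. Windows were found for 27 of the 32 genes, among them 6 of the 8 called at 1 μM, and none for ATRX, RAD54B, CHD5, CHD6 or CHD7. ETS letters (CCGGAAGT or CCGGAAGC, either strand) were in 4 of the 44 windows of the family, from BTAF1, CHD4 and SMARCAD1, against 7.36% of all 35116 windows. E2F letters (TTTGGCGC, TTTCCCGC or TTTCGCGC) were in 2 of the 44, from HELLS and HLTF, against 2.74%. The CHR letters TTTGAA, an element of cell cycle promoters, were in 6 of the 44, from ERCC6, ERCC6L, HLTF, SMARCAD1 and ZRANB3, against 15.2%. A match is only a run of letters, and no binding was measured.

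**Figure D1:**
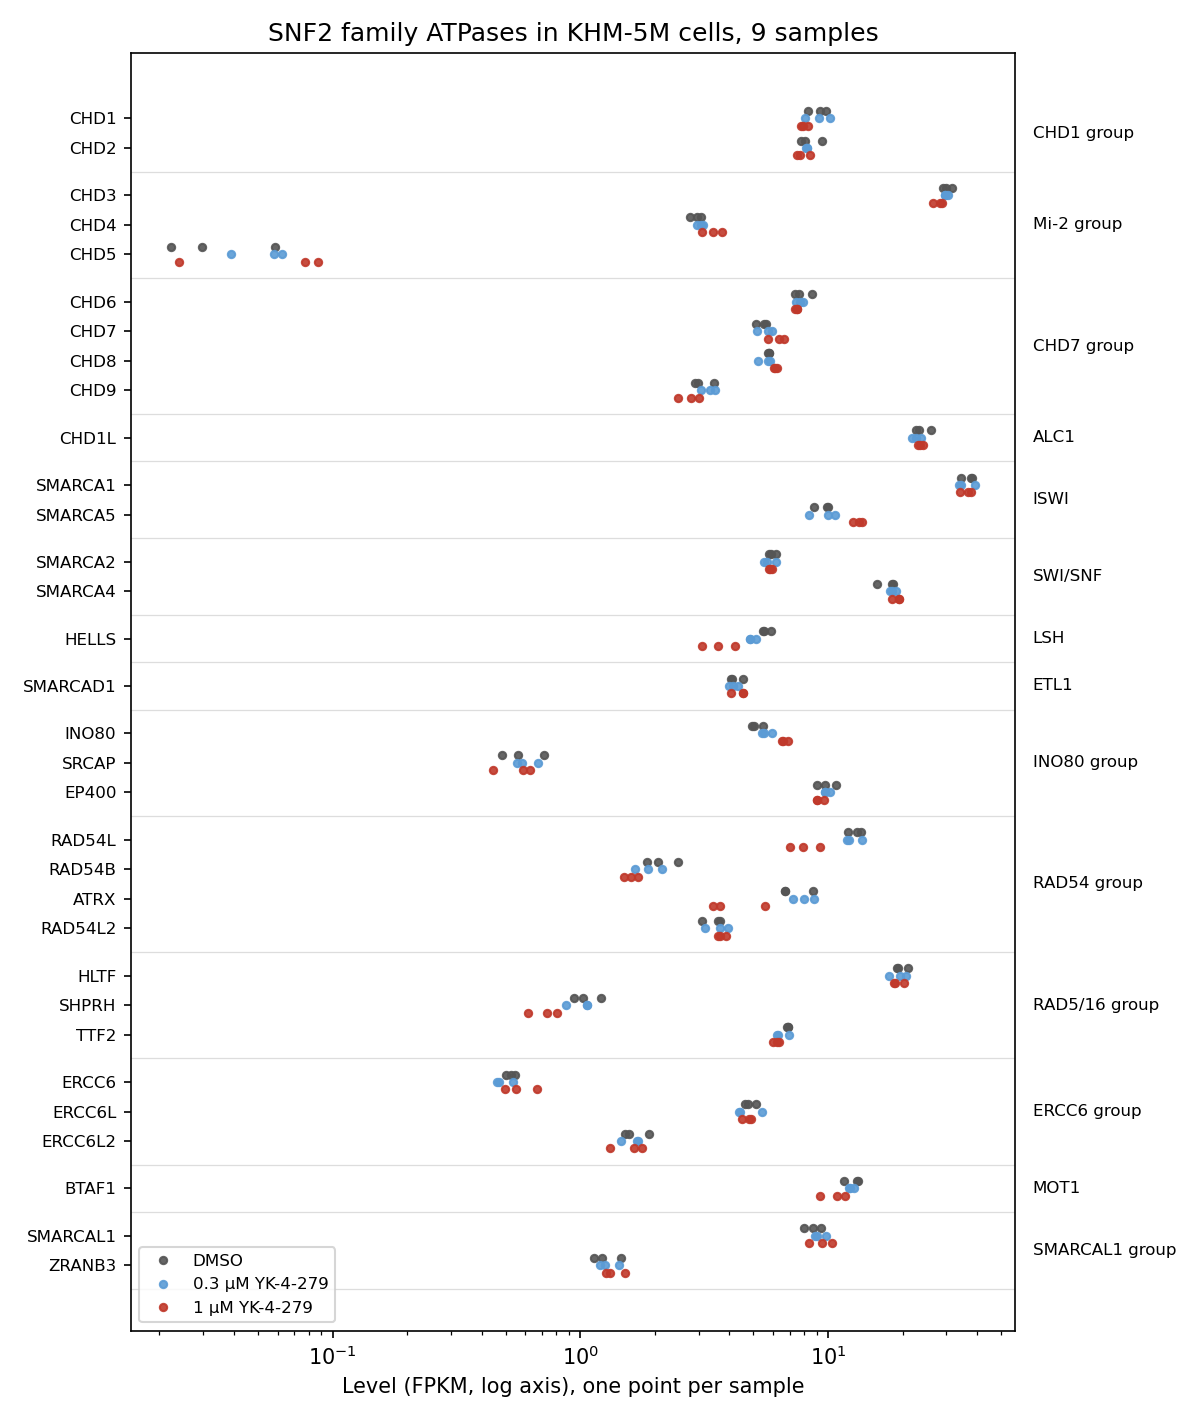
Level of each of the 32 SNF2 family ATPase genes in FPKM on a log axis, with 1 point per sample, coloured by group (DMSO, 0.3 μM and 1 μM of YK-4-279) and arranged by subfamily. SMARCA1 was highest and CHD5 lowest in the control group, and most genes had overlapping groups.

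In the control group the levels had a median of 5.86 FPKM, beside 5.48 FPKM for the 12900 protein-coding genes tested. They are per length and so comparable between genes, except for those that share exons, which are given below. SMARCA1, an ISWI motor that spaces nucleosomes, was highest at 36.9 ± 2.07 FPKM (SD, n = 3). CHD3 of the NuRD complex followed at 30.3 ± 1.42 FPKM, then CHD1L, which is recruited to DNA breaks by poly(ADP-ribose), at 24.0 ± 1.86 FPKM. HLTF, which remodels stalled forks, was at 19.7 ± 1.11 FPKM, and SMARCA4, an alternative motor of the SWI/SNF complexes, at 17.4 ± 1.39 FPKM. The last 2 lay close together, with SMARCA4 at up to 18.4 FPKM and HLTF from 18.9 FPKM. At the other end, SHPRH was at 1.06 ± 0.133 FPKM, SRCAP at 0.586 ± 0.117 FPKM and ERCC6 at 0.524 ± 0.0228 FPKM. The ranges of SRCAP and ERCC6 overlapped. CHD5, a remodeller best known from neurons, had 4 to 15 counts per sample in all 9 samples, and its fold changes carry wide errors.

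Some levels are uncertain because exons are shared with another gene. By GENCODE v44 exons, SRCAP shared 73.1% of its exon bases with AC106886.5 on the same strand, RAD54B 66.0% with FSBP, CHD1L 63.2% with AC242426.2 and CHD4 46.9% with AC006064.6. On the opposite strand, HLTF shared 27.4% with GYG1, RAD54L 19.9% with LRRC41 and SHPRH 11.2% with AL356599.1. SMARCA5 shared 11.1% with SMARCA5-AS1 and AC139713.1, which had 0.556 and 0 counts on average, and CHD4 10.2% with AC006064.2. No other member shared more than 4.88% with a single gene on that strand. Of the others on the same strand, HELLS shared 3.08% and no other more than 2.12%. How the counting treated such reads and the strand is not given in the sources used here, and the part of shared exons in the results was not tested.

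At 1 μM against DMSO, 6 of the 32 genes fell, 2 rose and 24 were not called (edgeR's quasi-likelihood test, Benjamini-Hochberg adjusted p under 0.05 over all 15617 genes tested). The 6 that fell were ATRX, RAD54L, HELLS, SHPRH, RAD54B and BTAF1, and those that rose were SMARCA5 and INO80. The share that fell was 18.8% of the 32, against a background of 9.95% of all genes tested, and the share that rose was 6.25%, against 7.67%. With a further limit of 1.5-fold, HELLS, RAD54L and ATRX were called lower and 0 genes higher, where the background among protein-coding genes was 2.35% lower and 1.56% higher. The median log2 fold change of the 32 genes was -0.06, beside -0.01 over all genes tested. The median size of change, without its sign, was 0.11 for the family and 0.17 over all genes. At 0.3 μM, where edgeR called no gene, the median size was also smaller for the family, at 0.04 beside 0.09. The part of count noise in these medians was not tested. That 24 genes were not called does not show that they were unchanged.

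In 8 of the 32 genes all 3 samples at 1 μM lay below all 3 control samples (CHD1, CHD3, HELLS, RAD54L, RAD54B, ATRX, SHPRH and TTF2), against 17.7% of all genes. In 4 they lay above (CHD7, CHD8, SMARCA5 and INO80), against 18.9%. For a single gene the exact permutation test of 3 against 3 samples cannot go below p = 0.1, so the calls rest on the fit across all genes.

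**Figure D2:**
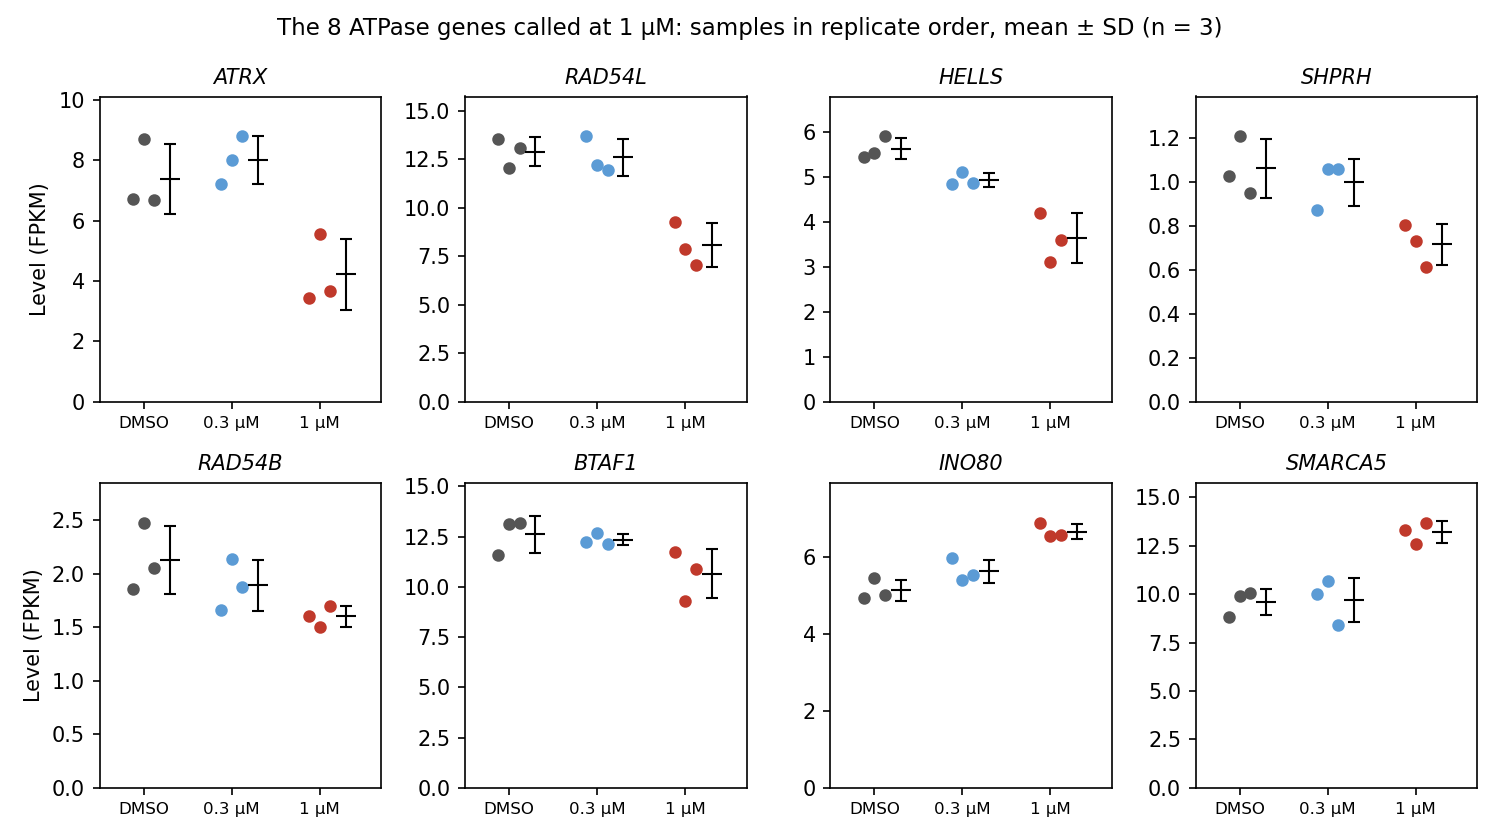
Level in FPKM, from 0, of the 8 genes called at 1 μM, with 1 point per sample in replicate order and the mean ± SD (n = 3) beside the points. For all but BTAF1 the 3 samples at 1 μM lie apart from the 3 control samples.

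The RAD54 subfamily held 3 of the 6 genes that fell. ATRX, which deposits a histone H3 variant at heterochromatin and telomeres together with DAXX, was among them. ATRX (ENSG00000085224, chrX:77504878-77786233, minus strand) was at 6.73, 8.73 and 6.68 FPKM in the control samples, at 7.24, 8.0 and 8.80 FPKM with 0.3 μM and at 3.43, 5.56 and 3.66 FPKM with 1 μM. The middle sample stood above the other two both in the control group and at 1 μM, and the groups did not overlap. The log2 fold change at 1 μM was -0.82 (SE 0.15, adjusted p = 0.0019, edgeR), a level that fell by 43.5%. With each sample left out in turn it ranged from -1.07 to -0.68, and the call held throughout. Its fall was larger than that of RAD54L with all samples, but not without the second control sample (-0.68 beside -0.73) or the first sample at 1 μM (-0.69 beside -0.80). DAXX, its partner, had a log2 fold change of 0.13 (adjusted p = 0.143, edgeR).

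RAD54L is a motor of homologous recombination. RAD54L (ENSG00000085999, chr1:46247688-46278473, plus strand) was at 13.6, 12.1 and 13.1 FPKM in the control samples, at 13.7, 12.2 and 11.9 FPKM with 0.3 μM and at 9.29, 7.89 and 7.03 FPKM with 1 μM. Every sample at 1 μM was below every other sample. The log2 fold change was -0.69 (SE 0.10, adjusted p = 0.000354, edgeR). LRRC41, with which it shares exons on the opposite strand, was at 1406 counts on average and had a log2 fold change of 0.11 (adjusted p = 0.287, edgeR).

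RAD54B, a paralog of RAD54L on chromosome 8 (ENSG00000197275), was much scarcer, at 1.86, 2.48 and 2.05 FPKM in the control samples, 1.66, 2.14 and 1.88 FPKM with 0.3 μM and 1.61, 1.5 and 1.70 FPKM with 1 μM. Its log2 fold change was -0.43 (SE 0.13, adjusted p = 0.0391, edgeR). This call was lost with DESeq2 (adjusted p = 0.0961) and without any single sample except the first control sample (adjusted p of 0.0679 to 0.136, edgeR). Without the second control sample, its highest, the log2 fold change was -0.30. AC023632.6, which lies within its span on the same strand, had 70.3 counts on average and a log2 fold change of -0.02. The fourth gene of the group, RAD54L2, a partner of androgen receptor, was not called, with a log2 fold change of 0.09 and a 95% interval of -0.08 to 0.26. It overlaps TEX264, which had 415.2 counts and a log2 fold change of -0.04.

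HELLS, the LSH remodeller needed for DNA methylation of repeats, fell as well. HELLS (ENSG00000119969, chr10:94501434-94613905, plus strand) was at 5.45, 5.53 and 5.90 FPKM in the control samples, at 4.83, 5.11 and 4.85 FPKM with 0.3 μM and at 4.20, 3.10 and 3.59 FPKM with 1 μM. The samples at 1 μM lay below all the others. Those at 0.3 μM lay below the control samples, but HELLS was not called at that dose (adjusted p = 0.995, edgeR). The log2 fold change at 1 μM was -0.65 (SE 0.09, adjusted p = 0.000434, edgeR). TBC1D12, which overlaps its span on the same strand, had 393.9 counts and a log2 fold change of 0.05. SMARCAD1 (ETL1), which keeps heterochromatin silent after replication, was not called, with 4.04, 4.10 and 4.54 FPKM in the control samples and 4.54, 4.04 and 4.54 FPKM at 1 μM (log2 fold change 0.03, SE 0.09, adjusted p = 0.840, edgeR). HELLS made 56.5 to 57.4% of the summed level of the pair in the control group, 53.8 to 55.0% at 0.3 μM and 43.4 to 48.1% at 1 μM.

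In the RAD5/16 group, whose members HLTF and SHPRH are ubiquitin ligases for PCNA at stalled forks, SHPRH fell alone. SHPRH (ENSG00000146414, chr6:145864245-145964423, minus strand) was at 1.03, 1.21 and 0.947 FPKM in the control samples, at 0.873, 1.06 and 1.06 FPKM with 0.3 μM and at 0.802, 0.730 and 0.613 FPKM with 1 μM. These low levels still rested on 183 to 386 counts per sample. The log2 fold change was -0.58 (SE 0.12, adjusted p = 0.0051, edgeR), just short of the 1.5-fold limit that HELLS passed. AL356599.1, which shares exons with it on the opposite strand, had 15.3 counts and a log2 fold change of -0.85 (adjusted p = 0.218, edgeR). HLTF had a log2 fold change of -0.06 with a 95% interval of -0.20 to 0.07. TTF2, which releases RNA polymerase II from DNA at mitosis, had one of -0.16 (SE 0.06, adjusted p = 0.0787, edgeR), and it was called with GC correction (adjusted p = 0.0320).

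BTAF1, the MOT1 motor that removes the TATA-binding protein from DNA, had the smallest of the falls. BTAF1 (ENSG00000095564, chr10:91923769-92030325, plus strand) was at 11.6, 13.1 and 13.2 FPKM in the control samples, 12.3, 12.7 and 12.1 FPKM with 0.3 μM and 11.7, 9.32 and 10.9 FPKM with 1 μM. The control group and the 1 μM group overlapped. Its log2 fold change came to -0.26 (SE 0.08, adjusted p = 0.0394, edgeR), and the call was lost without the second or the third control sample or the second or the third sample at 1 μM (adjusted p of 0.0648 to 0.175, edgeR). Without the second sample at 1 μM, its lowest, the log2 fold change was -0.17. With a minimum count of 1 the adjusted p was 0.0555.

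Of the ISWI pair, SMARCA5 rose and SMARCA1 did not. SMARCA5 (SNF2H) is the motor of the ACF, CHRAC, WICH and RSF complexes. SMARCA5 (ENSG00000153147, chr4:143513463-143557486, plus strand) was at 8.79, 9.89 and 10.03 FPKM in the control samples, at 9.998, 10.7 and 8.41 FPKM with 0.3 μM and at 13.3, 12.6 and 13.7 FPKM with 1 μM. All samples at 1 μM lay above all the other samples. Its log2 fold change reached 0.45 (SE 0.07, adjusted p = 0.000486, edgeR), 36.2% above the control group. SMARCA1 was at 34.5, 37.9 and 38.2 FPKM in the control samples and at 36.6, 34.2 and 37.8 FPKM with 1 μM (log2 fold change -0.04, SE 0.06, adjusted p = 0.674, edgeR). SMARCA5 made 20.3 to 20.8% of the summed level of the pair in the control group, 19.9 to 22.5% at 0.3 μM and 26.6 to 26.9% at 1 μM.

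INO80, the motor of a complex that slides nucleosomes and handles the histone variant H2A.Z, also rose. INO80 (ENSG00000128908, chr15:40978880-41116354, minus strand) was at 4.94, 5.44 and 5.02 FPKM in the control samples, at 5.97, 5.39 and 5.53 FPKM with 0.3 μM and at 6.89, 6.53 and 6.56 FPKM with 1 μM. The control group and the 1 μM group did not overlap, and the samples at 0.3 μM lay between them or within the control range. The log2 fold change at 1 μM was 0.36 (SE 0.07, adjusted p = 0.0040, edgeR). SRCAP and EP400, which load H2A.Z, were not called, with log2 fold changes of -0.10 (95% interval -0.47 to 0.27) and -0.11 (95% interval -0.25 to 0.04).

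The calls for ATRX, RAD54L, HELLS, SHPRH, SMARCA5 and INO80 held in each of 13 further fits, which were DESeq2, other size factors, a lower count limit, corrections for length and GC content, all 9 samples together, a replicate block and the 6 fits that left out a sample.

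**Figure D3:**
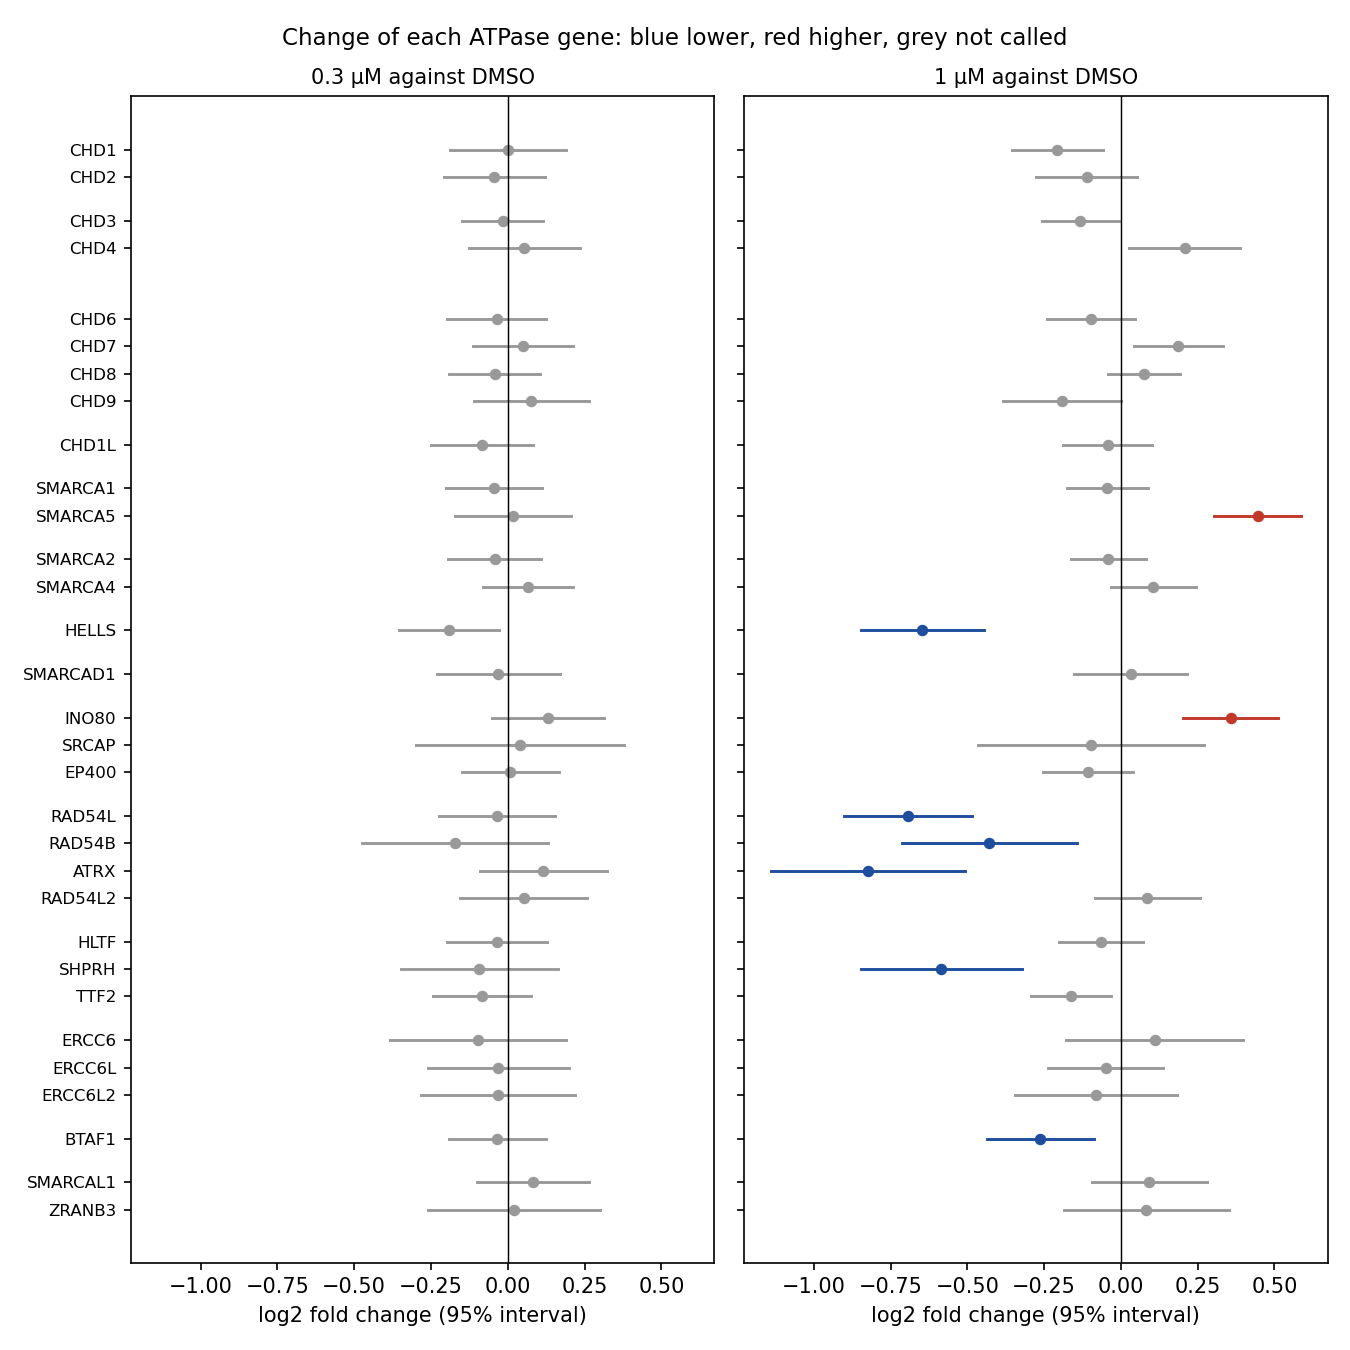
Log2 fold change with its 95% interval for 31 of the 32 genes at 0.3 μM (left) and 1 μM (right) against DMSO, with genes called lower in blue, higher in red and others in grey. CHD5 is left out because of its low counts. No gene is called at 0.3 μM, and 8 are at 1 μM.

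The SWI/SNF motors SMARCA4 and SMARCA2, alternative engines of the BAF and PBAF complexes, were not called. SMARCA4 was at 18.4, 15.8 and 18.04 FPKM in the control samples and at 18.1, 19.3 and 19.4 FPKM with 1 μM (log2 fold change 0.10, SE 0.06, adjusted p = 0.287, edgeR). SMARCA2 was at 5.90, 6.18 and 5.78 FPKM and at 5.79, 5.96 and 5.82 FPKM (log2 fold change -0.04, 95% interval -0.16 to 0.08). SMARCA4 made 71.9 to 75.7% of their summed level in the control group and 75.8 to 76.9% at 1 μM.

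None of the 9 CHD genes of the CHD1, Mi-2 and CHD7 groups was called at 1 μM, by edgeR or by DESeq2, although at an unadjusted p under 0.05 there were 3 lower (CHD1, CHD3 and CHD9) and 2 higher (CHD4 and CHD7). Over all genes tested 16.7% were lower and 15.2% higher at that threshold, and over the family 10 and 4 of the 32 genes were. CHD1, which follows elongating RNA polymerase II, was at 8.28, 9.82 and 9.28 FPKM in the control samples and at 7.80, 8.27 and 7.92 FPKM with 1 μM (log2 fold change -0.21, SE 0.07, adjusted p = 0.0518, edgeR). It was called without the first control sample (adjusted p = 0.0137). CHD2, its close relative, had a log2 fold change of -0.11. LINC01578, which shares 0.565% of the exon bases of CHD2 on the same strand, had 578.7 counts and a log2 fold change of -0.13 (adjusted p = 0.459, edgeR), while AC013394.1, a scarce gene of 23.6 counts within its span, had one of -1.77 (adjusted p = 0.0020, edgeR). Of the Mi-2 motors of NuRD, CHD3 had a log2 fold change of -0.13 (adjusted p = 0.135, edgeR). CHD4 had one of 0.21 (SE 0.08, adjusted p = 0.107, edgeR), from 3.08, 2.76 and 2.95 FPKM to 3.09, 3.43 and 3.75 FPKM, and it was called with GC correction (adjusted p = 0.0495). CHD7, which is mutated in CHARGE syndrome, was at 5.10, 5.604 and 5.54 FPKM in the control samples and at 6.31, 5.74 and 6.66 FPKM with 1 μM (log2 fold change 0.19, SE 0.07, adjusted p = 0.0702, edgeR). CHD7 was called higher with length correction (adjusted p = 0.0207), with GC correction (0.0325) and without the second control sample (0.0333) or the second sample at 1 μM (0.0434). CHD8, a regulator of beta-catenin targets, CHD6 and CHD9 had log2 fold changes of 0.08, -0.10 and -0.19. CHD5 had one of 0.76 with a 95% interval of -0.41 to 1.92.

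The remaining repair remodellers were not called either. CHD1L (ALC1) was at 23.3, 26.1 and 22.6 FPKM in the control samples and at 23.0, 24.2 and 23.6 FPKM with 1 μM (log2 fold change -0.04, SE 0.07, adjusted p = 0.711, edgeR). ERCC6 (CSB), which starts transcription-coupled repair, was at 0.524, 0.501 and 0.546 FPKM and at 0.666, 0.549 and 0.498 FPKM (log2 fold change 0.11, SE 0.13, adjusted p = 0.621, edgeR). ERCC6L (PICH), which binds the fine DNA bridges of anaphase, had a log2 fold change of -0.05 (95% interval -0.24 to 0.14), and ERCC6L2 one of -0.08. SMARCAL1, which anneals bare single strands at forks, was at 8.72, 8.03 and 9.38 FPKM and at 8.37, 9.46 and 10.4 FPKM (log2 fold change 0.09, SE 0.09, adjusted p = 0.508, edgeR). ZRANB3, a partner of PCNA with the same activity, had a log2 fold change of 0.08 (95% interval -0.18 to 0.35). The family as a whole summed to 268.3 to 283.1 FPKM in the control samples and 260.6 to 268.8 FPKM with 1 μM.

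At 0.3 μM against DMSO, 0 of the 32 genes were called by edgeR or by DESeq2, as were 0% of the 15762 genes tested by edgeR, and DESeq2 called 1 gene in all. HELLS alone had an unadjusted p under 0.05, against 3.77% of all genes. Its log2 fold change was -0.19 (SE 0.08, adjusted p = 0.995, edgeR). Its 3 samples at 0.3 μM lay below the 3 control samples, which held for 1 of the 32 genes (3.12%). The share over all genes was not computed for that comparison, so no result is drawn from this count. The log2 fold changes of the other genes called at 1 μM were 0.12 for ATRX, -0.03 for RAD54L, -0.09 for SHPRH, -0.17 for RAD54B, -0.03 for BTAF1, 0.02 for SMARCA5 and 0.13 for INO80. ATRX had a point estimate above 0 at the lower dose, with a 95% interval of -0.09 to 0.32.

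Both doses were compared with the same control samples, so the difference between doses was tested directly. At 1 μM against 0.3 μM, 4 of the 32 genes were lower (12.5%), against 6.75% of the 15583 genes tested, and 2 were higher (6.25%), against 5.85%. The lower genes were ATRX (log2 fold change -0.93, SE 0.13, adjusted p = 0.000237, edgeR), RAD54L (-0.65, SE 0.10, adjusted p = 0.000576), HELLS (-0.44, SE 0.09, adjusted p = 0.0060) and SHPRH (-0.48, SE 0.12, adjusted p = 0.0160). SHPRH lost this call without the second sample at 0.3 μM or the third at 1 μM. The higher ones were SMARCA5 (0.44, SE 0.08, adjusted p = 0.0019, edgeR) and INO80 (0.24, SE 0.08, adjusted p = 0.0487). The INO80 call was lost in every further fit except those with length correction and without the first sample at 0.3 μM. RAD54B (-0.24), BTAF1 (-0.22) and CHD9 (-0.26, adjusted p = 0.0516, edgeR) were not called between doses. BTAF1 was called with GC correction (adjusted p = 0.0258) and without the first sample at 1 μM (0.0432). CHD9 was called with GC correction, RLE size factors and the replicate block and without the first sample at 0.3 μM or the second at 1 μM (adjusted p of 0.0352 to 0.0489, edgeR), and CHD1 without the first sample at 0.3 μM (0.0226). At an unadjusted p under 0.05 there were 7 lower and 2 higher genes between doses, against 14.3% and 13.3% of all genes.

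The partner subunits of these motors were taken from a list of 103 genes, of which 99 were tested. At 1 μM, 12 fell and 5 rose, against the same backgrounds of 9.95% and 7.67%, and their median log2 fold change was -0.02. None of those called passed 1.5-fold. Without the third control sample 7 fell and 1 rose. The count that rose was also 1 without any of the samples at 1 μM and 3 without the first control sample. The genes named below beyond the pair with the lowest adjusted p in each list and direction were chosen after their values were seen. Of 26 BAF and PBAF subunits 4 fell (SS18L1, SMARCC2, SMARCE1 and ARID1A) and none rose by edgeR or DESeq2, where 1 had an unadjusted p under 0.05. SS18L1, a subunit of the neuronal form of the complex, went from 8.41 to 8.66 FPKM in the control group to 5.62 to 6.72 FPKM (log2 fold change -0.52, SE 0.08, adjusted p = 0.000761, edgeR), and the scaffold SMARCC2 had a log2 fold change of -0.20. SMARCE1 is listed at only 0.439 to 0.576 FPKM in the control group and shares 18.9% of its exon bases with another gene.

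In NuRD, GATAD2B fell (log2 fold change -0.26, adjusted p = 0.0163, edgeR) and its paralog GATAD2A rose (0.21, adjusted p = 0.0447), while 10 of 12 subunits were not called. Of 11 ISWI partners, with which SMARCA5 and SMARCA1 form their complexes, 0 were called by edgeR or DESeq2, and 3 had an unadjusted p under 0.05. Of 28 subunits of the INO80, SRCAP and TIP60 complexes, INO80E (-0.39, adjusted p = 0.0054, edgeR) and BRD8 (-0.23, adjusted p = 0.0200) fell. None of these rose by edgeR, while 2 had an unadjusted p under 0.05 in that direction and DESeq2 called 1. Over all genes tested 9.95% fell and 7.67% rose by edgeR. At an unadjusted p under 0.05, 16.7% were lower and 15.2% higher.

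Among 22 tested partners of the motors that work alone or in pairs, 5 fell and 4 rose, against 9.95% and 7.67% of all genes tested. TOP2A, the topoisomerase that untangles sister chromatids, had a log2 fold change of -0.55 (SE 0.06, adjusted p = 6.17e-05, edgeR), and CDCA7L one of -0.39 (adjusted p = 0.000601). CDCA7, the activator that brings HELLS to nucleosomes, went from 29.2 to 31.4 FPKM in the control group to 24.6 to 25.8 FPKM (log2 fold change -0.30, SE 0.06, adjusted p = 0.0028, edgeR). PCNA and UVSSA, a partner of ERCC6, were the other two that fell. H3F3B, a gene for the histone variant that ATRX and DAXX deposit, rose by a log2 fold change of 0.24 (adjusted p = 0.0084, edgeR). ZBTB24, a transcription factor mutated in the same syndrome as HELLS and CDCA7, rose by 0.37 (adjusted p = 0.0357, edgeR). The ubiquitin-conjugating pair UBE2N and UBE2V2, which works with HLTF and SHPRH, rose by 0.19 and 0.21. Over all partner lists the count that rose, 5, was 1 with the replicate block. It was also 1 when the third control sample or any single sample at 1 μM was left out.

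**Figure D4:**
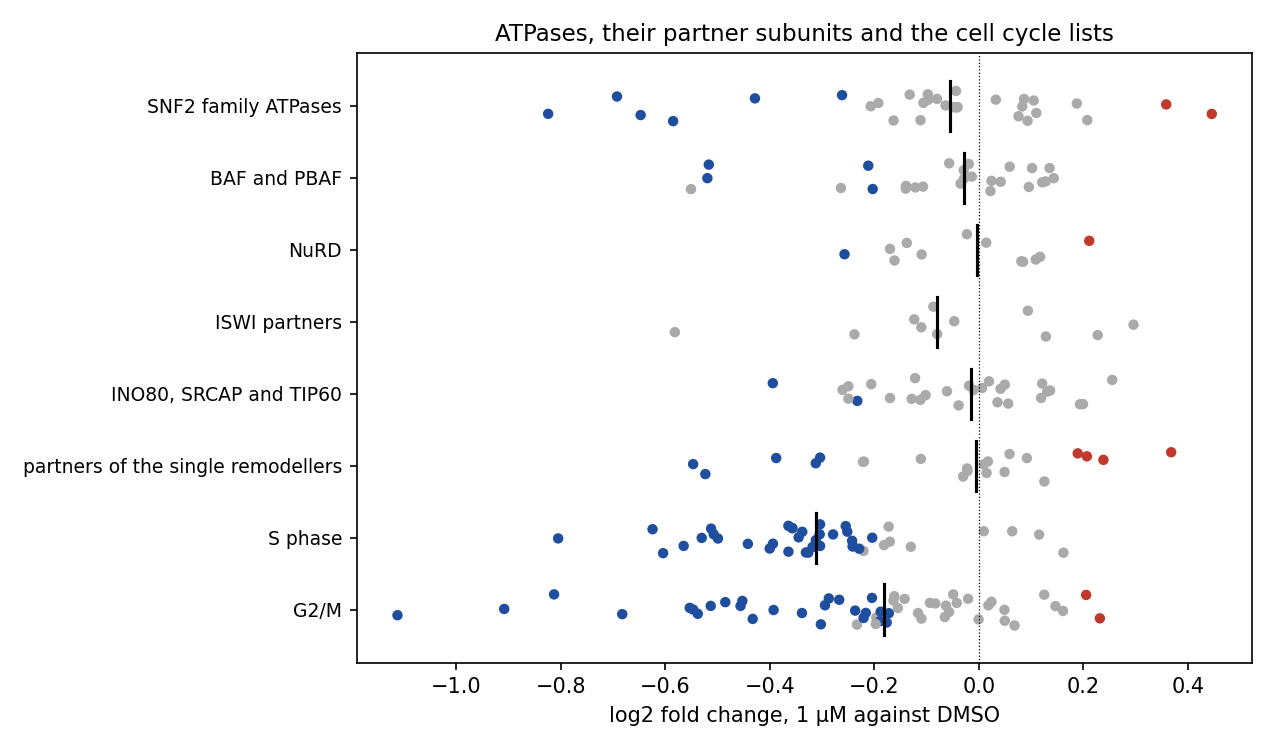
Log2 fold change at 1 μM against DMSO of each tested gene, by list, with called genes in blue (lower) and red (higher), others in grey and a black bar at the median of the list. CHD5 counts in the median of the family but lies beyond the axis, and the S phase list has the lowest median.

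Lists of S phase and G2/M genes moved at the same dose. As used here they hold none of the 32 motors, which does not place HELLS or RAD54L outside S phase. Of 41 tested S phase genes 32 fell and none rose by edgeR or DESeq2, with 0 at an unadjusted p under 0.05 in that direction, against the same background of 9.95% lower, and their median log2 fold change was -0.31. CDC45, a part of the replicative helicase, had a log2 fold change of -0.62 (SE 0.07, adjusted p = 6.745e-05, edgeR) and the repair helicase BRIP1 one of -0.60 (SE 0.08, adjusted p = 0.000319). Of 54 G2/M genes 26 fell, with the lowest adjusted p for the mitotic kinases CDK1 (-0.68, adjusted p = 4.01e-05, edgeR) and AURKB (-0.54, adjusted p = 6.05e-05), and AURKA and LBR rose (0.23 and 0.21). The median of the S phase genes, as a log2 difference from the control mean, was -0.04 to 0.06 in the control samples, -0.22 to -0.03 with 0.3 μM and -0.33 to -0.23 with 1 μM. Single genes of that list ranged from -0.80 for CASP8AP2 to 0.16. RAD54L and HELLS, at -0.69 and -0.65, lay below the list median of -0.31. They also lay below every tested gene of the list except CASP8AP2. From counts of cells in bulk, fewer cells in a phase and less RNA per cell cannot be told apart. By flow cytometry, the study reported a larger share of cells in G2/M at the higher dose, in this line among others. That measurement was made at an earlier time than the RNA. Whether it bears on the falls of the G2/M genes was not tested. The part of the cell cycle in the results for RAD54L and HELLS was not tested either. Of the partners not on these lists, 95 were tested, with 9 lower and 5 higher, against 9.95% and 7.67% of all genes tested.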

How the data were processed

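RNA-seq was analysed for KHM-5M cells, with 3 samples each for DMSO, 0.3 μM and 1 μM of YK-4-279. The authors trimmed adaptors, dropped reads of low quality and aligned the rest to GRCh38 with Hisat2. Their processing notes name HISAT2 2.0.5, featureCounts 1.5.0-p3 and DESeq2 1.20.0, whereas the methods name HTseq for counting. They deposited whole-number counts per gene, without normalization, and FPKM values, which divide the counts by gene length and library size. They also deposited the gene length in bases, and fold changes and p-values of their own that were not used. Sources disagree on a stranded library kit.

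From the counts, each pair of groups was tested with edgeR 4.0.16 in R 4.3.3 (filterByExpr with a minimum count of 10, TMM, glmQLFit, glmQLFTest), with Benjamini-Hochberg adjusted p-values across the genes tested. Genes with an adjusted p under 0.05 were called lower or higher. Fold changes are log2 values, with SE and 95% intervals from the same fit. Alternatives were DESeq2 1.42.0, RLE size factors, a replicate block, a minimum count of 1, a fit of all 9 samples, corrections for length and GC content (a value for 99.1% of genes), the unadjusted p, a 1.5-fold limit and leaving out each sample. FPKM was used for levels. The fits were tested on simulated data. Python 3.11.15 and matplotlib 3.10.9 were used for tables and figures. Replicates differed by 3.39 to 11.8 chi-square per degree of freedom.

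All 32 members are accounted for. Full statistics are given for those called at 1 μM and for at least 1 member of each subfamily, and for at most the 2 called genes of lowest adjusted p per direction in each partner or cell cycle list, beside genes that the text says were chosen after their values were seen. Any gene with at least 10 counts overlapping a member on the same strand is named. The members and lists were chosen with earlier results of these data known.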

Additional observations from a re-analysis of the deposited data

How the results depend on the processing

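Of 416 values of single family members under alternatives at 1 μM against DMSO, 396 kept their side of the threshold and their direction where called, 13 lost the call, 7 gained it and 0 reversed. With an unadjusted p the family held 10 lower and 4 higher genes at 1 μM, 1 gene at 0.3 μM and 7 lower between doses, where 16.7% and 15.2%, 3.77% and 14.3% of all genes met that threshold. With the 1.5-fold limit these became 3 lower and 0 higher at 1 μM, where 2.35% and 1.56% of protein-coding genes passed. Between doses they became 2 lower and 0 higher, and the share over all genes was not computed there. GC correction gave 7 lower and 4 higher genes at 1 μM, where it gave 1850 lower and 1846 higher over all 15617 genes tested. The count of genes higher between doses, 2, was 1 with DESeq2, GC correction, RLE size factors, all 9 samples in a fit, a minimum count of 1 and the replicate block, and 1 to 2 with a sample left out. Of the partner subunits, 12 lower and 5 higher at 1 μM became 19 and 8 with GC correction, 24 and 11 with an unadjusted p and 0 and 0 with the 1.5-fold limit. With a sample left out they ranged from 7 to 13 lower and from 1 to 7 higher. Correlations of deviations between same-numbered samples were -0.06 to 0.07 for 1 μM and DMSO, beside -0.05 to 0.07 for other pairs. Between doses they were -0.04 to -0.01, beside -0.006 to 0.03. In these comparisons the replicate numbers did not pair the samples. For 0.3 μM and DMSO same-numbered samples were higher, at 0.03 to 0.12 beside -0.09 to 0.004, and whether they were paired was not tested. With the replicate block, the partner subunits higher at 1 μM were 1 and the family held 4 lower and 2 higher genes, since RAD54B and BTAF1 lost their calls (adjusted p = 0.0697 and 0.0691, edgeR). Precision is limited by 3 samples a group, and for CHD5 by its 4 to 15 counts. The counts cannot show levels of reads shared between overlapping genes.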
